A study of Homo sapiens with 2 samples.

Results

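The S100 genes encode small calcium-binding proteins, and 10 of them were followed in single cells of HCT116, a human colon cancer cell line, with and without the DNA demethylating drug decitabine (DAC). The members were chosen by gene name, *S100A2*, *S100A3*, *S100A4*, *S100A6*, *S100A8*, *S100A9*, *S100A10*, *S100A14*, *S100A16*, and *S100P*, and all 10 were present among the 33538 genes of both tables, which list 21 S100 genes in all. The groups were a mock-treated culture and a culture exposed to a pair of 0.5 μM DAC doses, on days 1 and 3. Drug exposure ended with a medium change on day 5, so cells were sampled after a recovery without drug, on day 7. Each culture gave 1 library of droplet-captured single cells, in which the transcripts of every gene were counted as unique molecular identifiers (UMIs), so that PCR copies of a molecule count once. Since each condition has 1 library and its cells do not replicate it, the conditions are compared by values without a test or p-value. A difference caused by DAC therefore cannot be told apart from a difference between the cultures or between the library preparations. All intervals below are exact 95% intervals that cover counting error only.

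The proteins of this family carry a pair of EF-hand motifs, change shape on binding calcium, and act by docking onto partner proteins in the cytoplasm or, after release, onto cell surface receptors. Most of the genes lie side by side on 1q21, within and next to the gene cluster of the skin barrier. *S100A8* and *S100A9* are best known from neutrophils and monocytes, *S100A2* and *S100A3* from stratified epithelium and hair, and *S100A6*, *S100A10*, *S100A14*, and *S100A16* from many epithelia. DAC is built into DNA and binds DNA methyltransferases, and newly made strands then remain unmethylated.

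Of the 10 members, 9 lie on chromosome 1 and *S100P* lies on 4p16. Because DAC acts on the methylation of CpG sites, the 250 bases upstream of the RefSeq start site (GRCh38.p14) are shown for the members on which the results turn, 5′ to 3′ on the strand of the gene, with every CpG in capitals. For *S100A2*, which has 2 listed start sites, the first is shown.
S100A10, chr1:151993860-151994109, minus strand: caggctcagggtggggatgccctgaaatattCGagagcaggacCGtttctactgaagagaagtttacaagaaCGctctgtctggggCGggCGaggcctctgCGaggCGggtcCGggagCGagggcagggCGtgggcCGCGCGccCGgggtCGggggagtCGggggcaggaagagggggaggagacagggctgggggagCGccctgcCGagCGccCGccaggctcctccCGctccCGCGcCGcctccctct
S100A6, chr1:153535992-153536241, minus strand: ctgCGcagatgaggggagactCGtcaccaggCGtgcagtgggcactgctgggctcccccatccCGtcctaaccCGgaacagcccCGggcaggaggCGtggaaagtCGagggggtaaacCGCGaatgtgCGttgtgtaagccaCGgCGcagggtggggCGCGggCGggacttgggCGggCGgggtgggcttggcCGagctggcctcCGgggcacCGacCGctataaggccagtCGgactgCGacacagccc
S100A3, chr1:153549259-153549508, minus strand: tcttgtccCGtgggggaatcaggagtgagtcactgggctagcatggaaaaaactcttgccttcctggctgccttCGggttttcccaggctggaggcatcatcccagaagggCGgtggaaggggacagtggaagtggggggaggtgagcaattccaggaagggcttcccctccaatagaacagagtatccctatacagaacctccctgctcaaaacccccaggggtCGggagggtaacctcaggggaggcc
S100A2, chr1:153565845-153566094, minus strand: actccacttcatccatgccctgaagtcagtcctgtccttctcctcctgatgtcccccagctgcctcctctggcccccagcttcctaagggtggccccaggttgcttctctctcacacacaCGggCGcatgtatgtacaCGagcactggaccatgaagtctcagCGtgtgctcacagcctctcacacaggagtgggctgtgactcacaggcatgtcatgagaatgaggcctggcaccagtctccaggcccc
S100A14, chr1:153616326-153616575, minus strand: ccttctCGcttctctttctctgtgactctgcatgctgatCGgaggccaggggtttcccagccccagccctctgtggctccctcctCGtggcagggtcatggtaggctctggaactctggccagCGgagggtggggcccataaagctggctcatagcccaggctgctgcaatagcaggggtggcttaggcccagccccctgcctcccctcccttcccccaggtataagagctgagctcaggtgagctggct
S100A4, chr1:153545807-153546056, minus strand: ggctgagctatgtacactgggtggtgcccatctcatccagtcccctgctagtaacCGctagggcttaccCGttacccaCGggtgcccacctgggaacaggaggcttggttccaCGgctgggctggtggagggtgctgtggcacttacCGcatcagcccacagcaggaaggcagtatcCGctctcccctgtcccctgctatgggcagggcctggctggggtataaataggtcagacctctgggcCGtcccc
S100P, chr4:6693628-6693877, plus strand: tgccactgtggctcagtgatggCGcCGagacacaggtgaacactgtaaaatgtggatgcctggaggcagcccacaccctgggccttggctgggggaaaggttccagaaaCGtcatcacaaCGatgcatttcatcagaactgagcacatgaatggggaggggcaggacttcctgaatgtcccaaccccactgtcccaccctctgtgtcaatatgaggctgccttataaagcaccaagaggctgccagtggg
All 10 members matched the RefSeq promoter table, with 14 start sites. *S100A10* and *S100A6* each had 24 CpGs in this window, and 76.3% of the 35116 human promoters in the table had fewer. *S100A4* had 7 CpGs, and *S100A9*, *S100A3*, *S100A14*, *S100P*, and the first start site of *S100A2* had 4 CpGs each, a number below which 29.3% of the promoters lay. The second start site of *S100A2* had 3. The 3 start sites of *S100A8* had 2 CpGs each, and the start sites of *S100A16* had 1 and 6. The median over all promoters was 11, and 93.9% held at least 1. CpG-rich and CpG-poor windows were thus both present among the members, and the windows are described by their letters only, since methylation was not analysed here.

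The mock-treated library held 1783 cells with 49911689 UMIs and the DAC-treated library 1751 cells with 59046165 UMIs, with medians of 27899 and 35340 UMIs per cell. The libraries shared 12 barcodes. In 311 mock-treated and 319 DAC-treated cells, over 50% of the UMIs were mitochondrial. Cells with 10000 UMIs or more and at most 50% mitochondrial UMIs, called deep cells below, numbered 1298 and 1120. The 9 epithelial markers together had 246745 UMIs in the mock-treated and 470425 in the DAC-treated library, a sum carried by *KRT18* (101301 and 252746), *KRT8* (54580 and 111870), and *KRT19* (71817 and 90571), whereas *EPCAM* had a CPM ratio of 0.636 and *CDH1* of 0.916. *VIL1* had 37 and 62 UMIs, *CDH17* had 1 and 9, and *CDX1* had 0 and 58. Of 4 mesenchymal markers, which had 909 UMIs in the mock-treated and 29726 in the DAC-treated library, *VIM*, an intermediate filament gene, accounted for 371 and 28589, and *COL1A2* had 0 and 9.

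UMIs were scaled to 1000000 UMIs per library (CPM), and a gene was taken as higher or lower from a 2-fold difference in CPM if it had 100 UMIs or more over both libraries. Of the 13547 genes with this count, 16.3% were higher by 2-fold or more after DAC, 6.80% were at least 2-fold lower, and 23.1% were either. Among the 10 members, 8 had 100 UMIs or more. Of these 8 members, 4 were at least 2-fold higher (*S100A10*, *S100A3*, *S100A2*, and *S100P*) and 1 was at least 2-fold lower (*S100A14*). The other members of the 8, *S100A6*, *S100A4*, and *S100A16*, were lower by less than 2-fold. The median log2 ratio was 0.49 over the 8 members and 0.24 over all genes tested. *S100A8* and *S100A9* had too few UMIs.

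**Figure D1:**
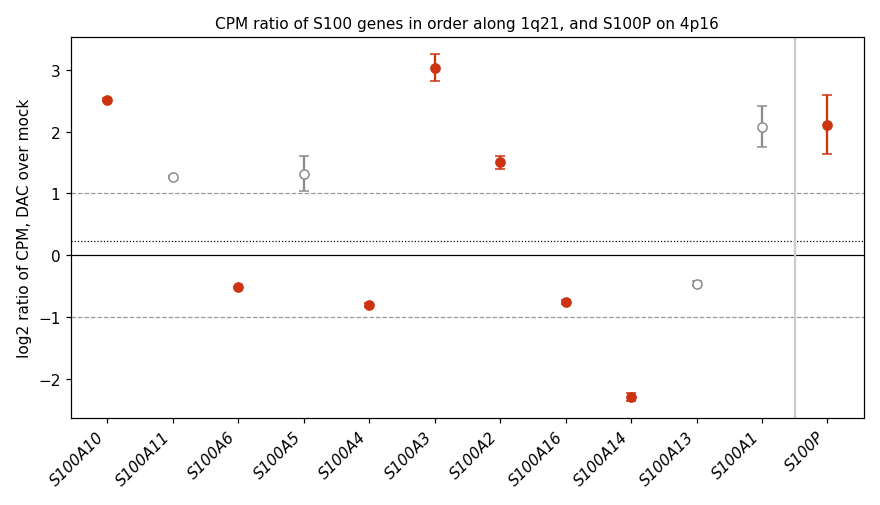
log2 ratio of CPM (DAC over mock) of S100 genes with 100 UMIs or more, in order along 1q21, with *S100P* apart; filled red points are the members, open grey points are the other S100 genes, bars are exact 95% intervals of counting error, dashed lines mark 2-fold and the dotted line the median of all genes tested. Values of both signs are interleaved along the cluster, from 3.03 for *S100A3* to -2.29 for *S100A14*.

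*S100A10*, whose protein (p11) has lost calcium binding and pairs with annexin A2 at the plasma membrane, had the largest gain in UMIs. *S100A10* (chromosome 1 of hg38, from 151982915 to 151993859, minus strand) had 13703 UMIs in the mock-treated library (13475 to 13934) and 92736 in the DAC-treated library (92140 to 93335). These counts correspond to 274.5 CPM and 1571 CPM, a ratio of 5.72 (5.62 to 5.82). *S100A10* alone took 5.53% of the UMIs of the 10 members in mock-treated and 33.3% in DAC-treated cells, whereas the 10 members together made up 0.497% and 0.472% of all UMIs. The share of cells with at least 1 UMI of *S100A10* was 77.2% (75.2 to 79.1%) in mock-treated and 91.4% (90.02 to 92.7%) in DAC-treated cells. After thinning every cell to 10000 UMIs, which removed 395 cells of the mock-treated library and 458 of the DAC-treated one, these shares were 80.5% and 95.5%. The shift in level per cell covered most of the deep cells. Among deep cells, the median was 237.9 CPM in mock-treated and 1464 CPM in DAC-treated cells, and 84.4% of the DAC-treated deep cells exceeded 712.8 CPM, a level that 95% of the mock-treated deep cells did not exceed.

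*S100A3* and *S100A2*, neighbors on the minus strand, were both higher in DAC-treated cells, and each was found in under 50% of all deposited cells of either library. Among deep cells, *S100A3* was found in 11.9% of mock-treated and 59.2% of DAC-treated cells, and *S100A2* in 41.6% and 68.9%. *S100A3* (from 153547329 to 153549258), which encodes a cysteine-rich protein of the hair cuticle, had 191 UMIs in the mock-treated library (164.9 to 220.1) and 1844 in the DAC-treated library (1761 to 1930), a CPM ratio of 8.16 (7.03 to 9.52). At least 1 UMI of *S100A3* was present in 8.86% (7.58 to 10.3%) of mock-treated and 39.6% (37.3 to 42.0%) of DAC-treated cells, or 3.54% and 21.2% after thinning to 10000 UMIs. No more than 4 UMIs of *S100A3* occurred in a mock-treated cell, and up to 41 in a DAC-treated cell. Cells with 3 UMIs or more of *S100A3* numbered 7 in the mock-treated library and 231 in the DAC-treated library (13.2%, 11.6 to 14.9%).

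*S100A2* (from 153561108 to 153567890), known from basal keratinocytes and as a target of p53, had 879 UMIs in the mock-treated library (821.8 to 939.1) and 2942 in the DAC-treated library (2837 to 3050), a CPM ratio of 2.83 (2.62 to 3.05). Its share of cells was 31.2% (29.1 to 33.4%) in mock-treated and 47.1% (44.7 to 49.4%) in DAC-treated cells, or 14.9% and 27.9% after thinning. With 3 UMIs or more, *S100A2* was present in 71 mock-treated cells (3.98%) and 341 DAC-treated cells (19.5%), with up to 11 and 75 UMIs in a cell. A single cell line offers no cell type known to lack these genes in which free RNA could be measured, so its part in these shares was not tested.

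*S100P* (chromosome 4, from 6693878 to 6697170, plus strand), first found in placenta and known to bind ezrin, remained rare in both libraries. *S100P* had 46 UMIs in the mock-treated library (33.7 to 61.4) and 234 in the DAC-treated library (205.0 to 266.0), a CPM ratio of 4.30 (3.12 to 6.03). It was detected in 32 mock-treated cells (1.79%, 1.23 to 2.52%) and 88 DAC-treated cells (5.03%, 4.05 to 6.16%), or 0.821% and 2.36% after thinning to 10000 UMIs. A single DAC-treated cell held 48 of the UMIs, 20.5% of the total, and the ratio was 3.83 when the cell with the most *S100P* UMIs was left out of each library. *EZR*, the gene of ezrin, picked here after its values were seen, had 51781 UMIs in mock-treated and 51224 in DAC-treated cells. Scaled to library totals, its CPM ratio was 0.836 (0.826 to 0.846).

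*S100A14*, an epithelial member and the direct neighbor of *S100A16*, showed the opposite pattern. *S100A14* (from 153614255 to 153616986, minus strand) had 11861 UMIs in the mock-treated library (11648 to 12076) and 2871 in the DAC-treated library (2767 to 2978). Its level was 237.6 CPM in mock-treated and 48.6 CPM in DAC-treated cells, 4.89-fold lower (4.69 to 5.09), and 0.753% of all genes tested had a lower ratio. Cells with a UMI of *S100A14* made up 74.0% (71.9 to 76.0%) of mock-treated and 34.3% (32.1 to 36.6%) of DAC-treated cells, or 71.9% and 23.7% after thinning. The mean was 8.99 UMIs in a mock-treated cell with the gene and 4.78 in a DAC-treated cell with it, so that both the share of cells and the UMIs per such cell were lower. Among deep cells, 89.7% of the mock-treated and 47.8% of the DAC-treated had a UMI of *S100A14*, and 8.75% of the DAC-treated were above the median of the mock-treated deep cells, 181.6 CPM. The 5% of cells with the most UMIs of *S100A14* held 26.6% of them in the mock-treated and 50.6% in the DAC-treated library.

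*S100A6*, *S100A4*, and *S100A16* were the other members with high counts, and all of them were moderately lower in DAC-treated cells. *S100A6* (calcyclin, from 153534599 to 153536244) had 181878 UMIs in the mock-treated library (181043 to 182716) and 150840 in the DAC-treated library (150080 to 151603), a CPM ratio of 0.701 (0.696 to 0.706). It was detected in 95.6% of mock-treated and 94.4% of DAC-treated cells, and in every deep cell of both libraries. The spread of *S100A6* between deep cells was wider after DAC, with 10th and 90th percentiles of 1734 and 6368 CPM in mock-treated cells and 709.5 and 5583 CPM in DAC-treated cells.

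*S100A4* (from 153543613 to 153550136), whose protein binds nonmuscle myosin and is linked to cell motility, had 24710 UMIs in the mock-treated library (24403 to 25020) and 16741 in the DAC-treated library (16488 to 16996), a CPM ratio of 0.573 (0.562 to 0.584). Its share of cells was 77.4% (75.4 to 79.3%) in mock-treated and 61.7% (59.4 to 64.0%) in DAC-treated cells, or 78.5% and 54.4% after thinning. The top 5% of cells held 27.4% of its UMIs in the mock-treated library and 46.9% in the DAC-treated library. This share was also larger after DAC for the other lower members, *S100A6* (19.3% and 25.2%), *S100A16* (21.2% and 28.3%), and *S100A14* (26.6% and 50.6%). The part of lower counts and of shallow cells in these shares was not tested. In GENCODE release 44, *S100A3* lies inside the annotated span of *S100A4* on the same strand, and the exons of the pair share 0 bases. *S100A16* (from 153606886 to 153613145), a widely expressed member, had 14669 UMIs in the mock-treated library (14433 to 14908) and 10278 in the DAC-treated library (10080 to 10479), a CPM ratio of 0.592 (0.577 to 0.607). It was detected in 77.9% (75.9 to 79.8%) and 68.6% (66.4 to 70.8%) of the cells, or 84.7% and 63.9% after thinning.

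**Figure D2:**
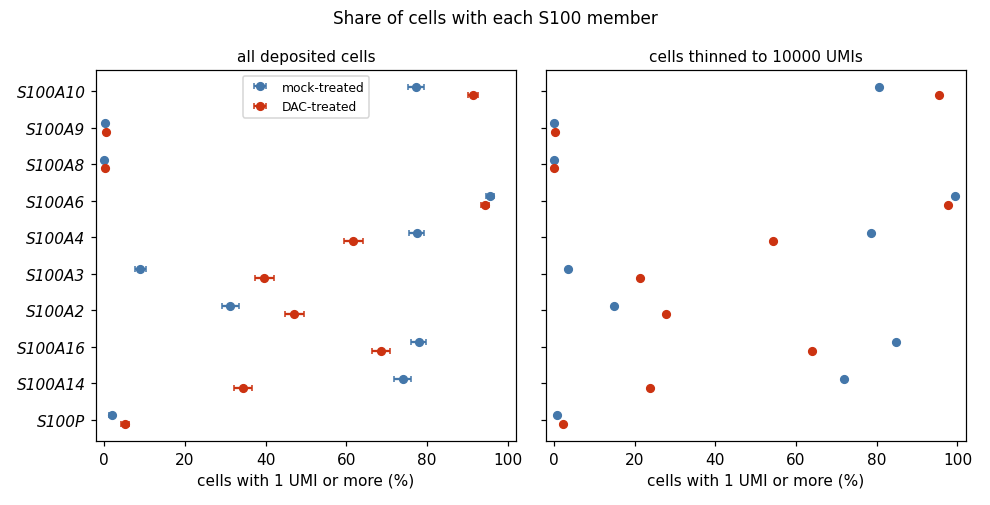
Share of mock-treated (blue) and DAC-treated (red) cells with 1 UMI or more of each member, in all deposited cells with exact 95% intervals (left) and as the expected share after thinning each cell to 10000 UMIs (right). For *S100A14* the share was 74.0% in mock-treated and 34.3% in DAC-treated cells, and for *S100A3* it was 8.86% and 39.6%.

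*S100A8* and *S100A9*, the subunits of calprotectin, had few UMIs or none in both libraries. *S100A8* (from 153390032 to 153391073) had no UMI in 1783 mock-treated cells, which allows up to 0.168% of cells with a UMI by 3 counts, or 0.207% by the exact interval, and sets no limit on cells expressing the gene below this depth, and 1 UMI in the DAC-treated library. *S100A9* (from 153357854 to 153361023, plus strand) had 1 UMI in the mock-treated library and 11 UMIs in 9 DAC-treated cells (0.514%, 0.235 to 0.973%), with no more than 2 UMIs in a cell. The CPM ratio of *S100A9* had an interval from 1.35 to 400.2. Of 10 myeloid markers, 4 were at 0 in the mock-treated and 2 in the DAC-treated library, and the list had 346 and 983 UMIs, of which *CD68* accounted for 321 and 525. *TYROBP* had 0 and 273 UMIs, *PTPRC* had 0 and 16, and *FCGR3B* and *S100A12* were at 0 in both libraries. The part of these genes in the values of *S100A9* was not tested.

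**Figure D3:**
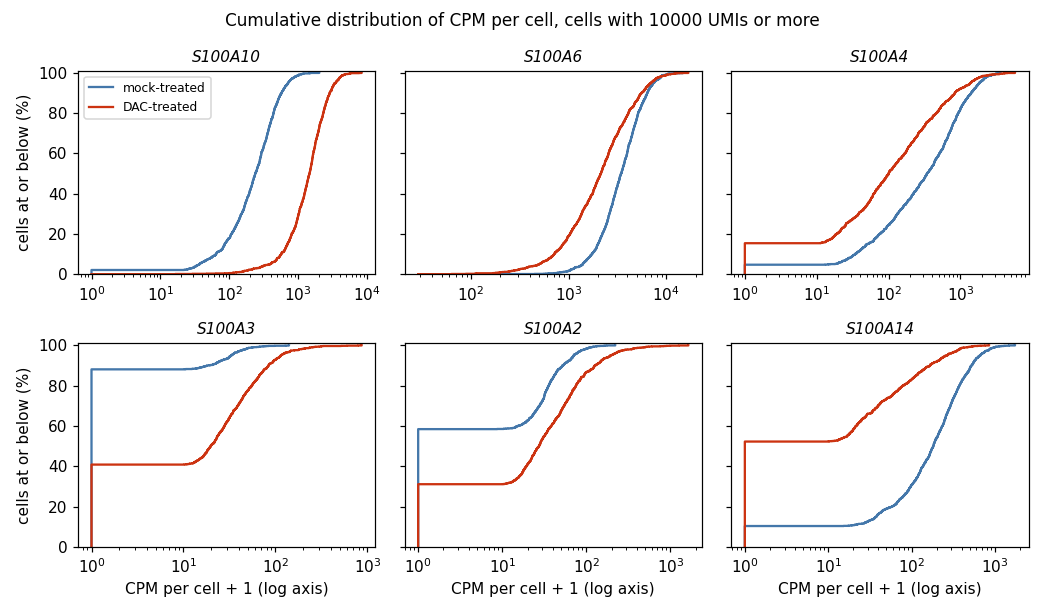
Cumulative share of deep cells (y axis, %) by CPM per cell plus 1 (x axis, log scale) for 6 members, mock-treated in blue and DAC-treated in red. The *S100A10* curves are separated along nearly their whole length, with medians of 237.9 and 1464 CPM, whereas the *S100A3* curves begin at the share of cells without a UMI.

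The other S100 genes with 100 UMIs or more were *S100A11*, *S100A5*, *S100A13*, and *S100A1*, and 3 of these 4 were higher by 2-fold or more after DAC, as were 16.3% of all genes tested. *S100A11*, next to *S100A10* on the chromosome and a partner of annexin A1, had 27623 UMIs in mock-treated and 78450 in DAC-treated cells, a CPM ratio of 2.40 (2.37 to 2.43). *S100A1*, at the far end of the cluster, had 96 and 478 UMIs, a ratio of 4.21 (3.37 to 5.30). *S100A5*, between *S100A6* and *S100A4*, had 139 and 410 UMIs, a ratio of 2.49 (2.05 to 3.04). *S100A13* had 11816 and 10183 UMIs, a ratio of 0.728 (0.709 to 0.748). *S100A13* and *S100A1* overlap on opposite strands over 235 exonic bases, so reads there can be assigned to the wrong gene if strand is not used. Of the remaining genes of the family, *S100A7* had 2 and 65 UMIs, *S100Z* 1 and 31, and *S100B* 5 and 19, and these 3 genes fell under the count limit and were named after their values were seen. *S100A7A*, *S100A7L2*, *S100A12*, and *S100G* were at 0 in both libraries.

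Along 1q21, members with different directions were interleaved. From *S100A10* to *S100A1*, the tables hold 70 genes, of which 61 are not members. Among these 61 genes, 33 had no UMI in either library, 6 had 100 UMIs or more (the 4 S100 genes above, *TCHH*, and *SPRR2D*), and 4 of the 6 were at least 2-fold higher, against 16.3% of all genes tested. The highest ratio among the 6 was that of *TCHH* (trichohyalin, a hair follicle protein), with 13 UMIs in mock-treated and 273 in DAC-treated cells. The lowest ratio among the 6 was that of *SPRR2D*, a cornified envelope gene, with 118 and 73 UMIs. Since *S100A2* and *S100A3* are known from stratified epithelium, a list of 22 squamous genes was also counted, of which 21 are in the tables. It had 7797 UMIs in mock-treated and 21105 in DAC-treated cells, and 6 genes had 100 UMIs or more, of which 4 were at least 2-fold higher, against 16.3% of all genes tested, and 0 were at least 2-fold lower, against 6.80%. *SFN*, which many epithelia express, accounted for 7312 and 17447 of these UMIs. *KRT14* had 4 and 865 UMIs, *KRT6A* had 0 and 475, and *KRT13* had 54 and 1785, whereas *TP63* had 0 and 25 and *IVL* had 0 and 1. The others of the 6 were both lower in CPM, *DSC3* with 261 and 238 UMIs and a ratio of 0.771 (0.644 to 0.922), and *SPRR2D* with a ratio of 0.523. Reads of *KRT6A* and *KRT14* may in part be shared with their near-identical paralogs. The part of the squamous and mesenchymal genes in the values of *S100A2* and *S100A3* was not tested.

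Of 34 listed partner, receptor, and effector genes of the S100 proteins, all in the tables, 26 had 100 UMIs or more. Of these 26 genes, 5 (19.2%) were at least 2-fold higher, near the 16.3% of all genes tested, and 4 (15.4%) were at least 2-fold lower, against 6.80%. Their median log2 ratio was 0.61, against 0.24 for all genes tested. *CD33*, a receptor bound by S100A9, had 76 UMIs in mock-treated and 456 in DAC-treated cells, a ratio of 5.07 (3.97 to 6.55). *TPM1*, encoding tropomyosin, had a ratio of 2.59 (2.43 to 2.77), and *CACYBP*, the calcyclin-binding protein named for its binding of S100A6, a ratio of 2.34 (2.26 to 2.42). Lower were *TRPV6*, a calcium channel bound by the S100A10 and annexin A2 complex, with 115 and 17 UMIs and a ratio of 0.125 (0.0704 to 0.209), *ASIC1* with 0.392 (0.343 to 0.447), and *ANXA1*, the partner of S100A11, with 0.397 (0.390 to 0.405). *ANXA2*, the partner of S100A10, had 42583 UMIs in mock-treated and 77642 in DAC-treated cells, a ratio of 1.54 (1.52 to 1.56), which is below the 2-fold limit and smaller than that of *S100A10*. *ANXA2* was singled out after its values were seen.

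The members were then compared across classes of cells. In the deep cells, *S100A10* had 287.4 CPM in mock-treated and 1669 CPM in DAC-treated cells, a ratio of 5.81 (5.70 to 5.91). In the cells with more than 50% mitochondrial UMIs it had 27.6 and 224.7 CPM, a ratio of 8.13 (6.35 to 10.6), and was detected in 16.7% and 75.9% of these cells at median depths of 7889 and 11117 UMIs. In the other cells, with fewer than 10000 UMIs, the ratio was 5.87 (4.76 to 7.31). *S100A14* was lower in all 3 classes, by 4.81-fold in deep cells, 4.88-fold in cells with more than 50% mitochondrial UMIs, and 5.67-fold in the other cells. *S100A6* had a ratio of 0.710 in deep cells and 0.794 (0.737 to 0.856) in the other cells, but 1.03 (0.951 to 1.12) in cells with more than 50% mitochondrial UMIs. *S100A4* had ratios of 0.585, 0.424, and 0.457 in the deep, mitochondrial, and other cells, and *S100A16* had 0.601, 0.672, and 0.732. For the members with low counts, nearly all UMIs came from deep cells, and the other classes gave wide intervals. *S100A3* had a ratio of 8.31 (7.14 to 9.70) in deep cells and of 2.97 (0.840 to 15.99) in the other cells, where it had 3 and 15 UMIs, and it had 0 and 24 UMIs in the mitochondrial cells. *S100A2* had 2.90 (2.68 to 3.13) in deep cells, 1.72 (0.811 to 3.97) in mitochondrial cells, which is under the 2-fold limit, and 2.37 (1.07 to 5.96) in the other cells. *S100P* had 4.27 (3.10 to 5.996) in deep cells, which held 46 of its 46 mock-treated UMIs and 227 of its 234 DAC-treated UMIs.

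**Figure D4:**
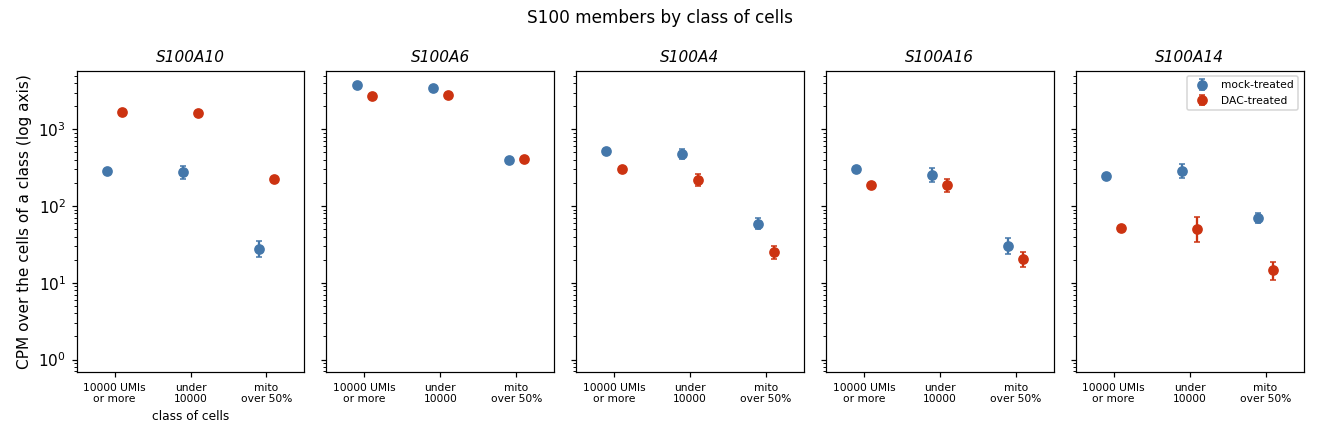
CPM (log axis) of 5 members in mock-treated (blue) and DAC-treated (red) cells with 10000 UMIs or more, with fewer than 10000 UMIs, and with more than 50% mitochondrial UMIs; bars are exact 95% Poisson intervals. *S100A10* was higher and *S100A14* lower in DAC-treated cells in each class, and *S100A6* had a ratio of 1.03 in the mitochondrial class.

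Co-detection was measured for the pairs of members that each had a UMI in 1% to 95% of the cells, as the number of cells with both genes against the number expected from their shares within 10 groups of cells of similar total UMIs. A mock-treated cell had UMIs of a median of 5 of the 10 members and a DAC-treated cell also of 5, with 39 mock-treated and 25 DAC-treated cells having none. Of 20 pairs with 5 or more cells expected in the mock-treated library, the ratio of observed to expected had a median of 1.02 and reached 1.2 for 1 pair, *S100A3* with *S100A2*, with 89 cells against 71.0 expected. In the DAC-treated library, the median over 28 pairs was 1.03, and 2 pairs reached 1.2. The sets of pairs differ, since *S100A6* passed 95% of the cells in the mock-treated library and enters with 7 pairs in the DAC-treated library alone, and *S100A3* with *S100P* had too few expected cells in the mock-treated library. The pairs that reached 1.2 after DAC were *S100A3* with *S100P*, with 62 cells against 48.9, and *S100A14* with *S100P*, with 50 cells against 40.9. *S100A3* and *S100A2* were found together in 496 DAC-treated cells against 467.2 expected, a ratio of 1.06. The ratio has little room above 1 where a member is found in most cells. All 88 DAC-treated cells with *S100P* also had *S100A10*, for example, a ratio of 1.02. The count of pairs depended on how detection was set. After thinning to 10000 UMIs, 7 of 15 pairs reached 1.2 in the DAC-treated and 1 of 15 in the mock-treated library, and with 3 UMIs or more required, 7 of 26 and 0 of 15 did.

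Levels were compared across deep cells by the Spearman correlation of CPM, given as a description without a p-value, since cells of 1 library share depth and a sum of CPM. Over 36 pairs of the 8 members and *S100A11*, the median rho was 0.09 in mock-treated cells (n = 1298) and 0.15 in DAC-treated cells (n = 1120). The pair with the highest rho in DAC-treated cells was *S100A10* with *S100A11*, with 0.31 in mock-treated and 0.64 in DAC-treated cells. *S100A6* with *S100A4* had 0.21 and 0.49, and *S100A4* with *S100A3* had 0.05 and 0.36. The deep-cell median rose from 237.9 to 1464 CPM for *S100A10* and from 518.4 to 1170 CPM for *S100A11*. Low counts per cell add counting noise that can lower rho, and the part of this in the rho values of the pair was not tested. *S100A3* had a UMI in 11.9% of the mock-treated and 59.2% of the DAC-treated deep cells, at median depths of 32297 and 47061 UMIs. *S100A2* had a UMI in 41.6% and 68.9% of these cells, and *S100P* in 2.47% and 7.5%. Cells at 0 are tied, so the rho values of *S100A3*, *S100A2*, and *S100P* are not comparable between the libraries. The same limit holds for the medians over 36 pairs, which include these members. *S100A4* was inversely related to *S100A16* in mock-treated cells, with -0.24, and had 0.21 with it in DAC-treated cells. In mock-treated cells, *S100A4* also had a rho of 0.33 with the mitochondrial share of a cell and *S100A16* a rho of -0.34, against -0.01 and 0.02 in DAC-treated cells, and the part of this share in the inverse relation was not tested. *S100A10*, which was higher, and *S100A14*, which was lower, had a rho of -0.03 in mock-treated and 0.07 in DAC-treated cells. *S100A14* had a UMI in 89.7% and 47.8% of these deep cells, and its cells at 0 are tied. These rho values therefore do not show whether the levels were unrelated.

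**Figure D5:**
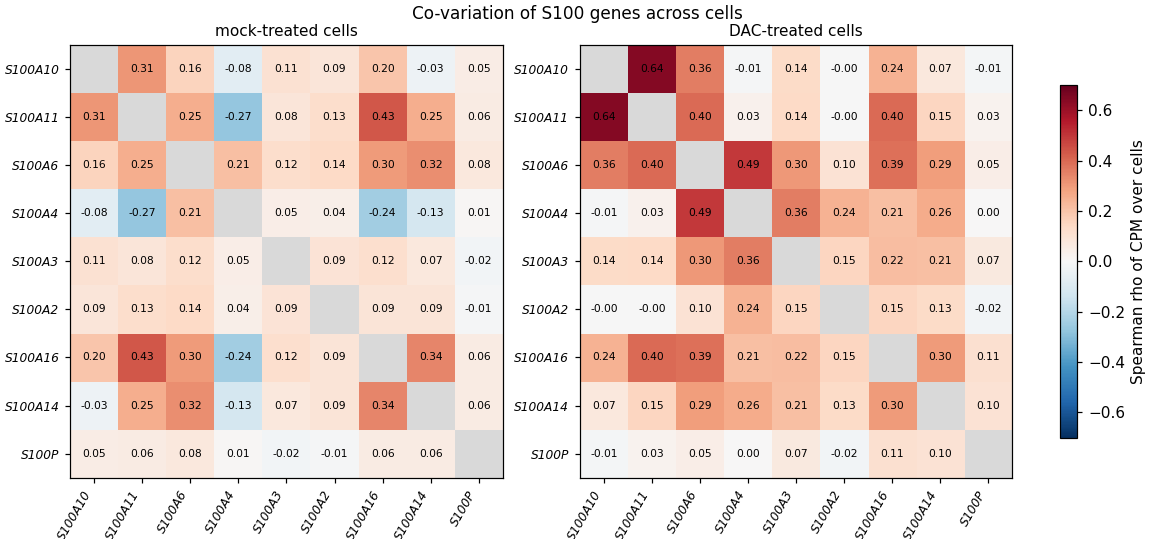
Spearman rho of CPM across deep cells for pairs of the 8 members with 100 UMIs or more and *S100A11*, in mock-treated (left, n = 1298 cells) and DAC-treated cells (right, n = 1120 cells). The *S100A10* and *S100A11* pair had 0.64 in DAC-treated cells, and *S100A4* had negative values with *S100A16* and *S100A11* in mock-treated cells.

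Among genes with 1000 UMIs or more, those most similar across deep cells were named by rank of rho for the 5 members with that count in both libraries, which leaves out *S100A3*, *S100A2*, *S100P*, *S100A8*, and *S100A9*, out of 5090 genes in mock-treated and 6178 genes in DAC-treated cells. For *S100A10* they were *ANXA2* (0.35), *LMNA* (0.34), and *LGALS1* (0.32) in mock-treated cells, and *S100A11* (0.64), *TMSB10* (0.44), and *S100A6* (0.36) in DAC-treated cells, where *ANXA2* had 0.16. For *S100A14* they were *CLDN7* (0.42), *MAL2* (0.40), and *FTH1* (0.37) in mock-treated cells, and *CLDN7* (0.41), *RAB25* (0.39), and *CDH1* (0.37) in DAC-treated cells. *CLDN7* encodes a tight junction protein and *CDH1* encodes E-cadherin. For *S100A6* the first gene was *KRT19* (0.45) in mock-treated and *ADIRF* (0.51) in DAC-treated cells. For *S100A4* it was *FBXO2* (0.46) and *S100A6* (0.49), and for *S100A16* it was *HMGA1* (0.55) and *S100A11* (0.40).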

How the data were processed

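The authors made 1 droplet 3′ library each of mock-treated and DAC-treated HCT116 cells, and Cell Ranger with hg38 gave the deposited values, which are UMI counts of each gene in each cell as counted. The annotation release and any filter on cells are not given in the sources used here. No cell was filtered out. No doublet caller was run, since cells of 1 line cannot be told from their doublets by marker genes. The members and gene lists were chosen with earlier results of these data known. Counts were summed per library and scaled to library totals, in Python 3.11.15 (scipy 1.17.1, numpy 2.4.6, pandas 2.3.3, and matplotlib 3.10.9). CPM ratios have exact conditional intervals, UMI sums exact Poisson intervals, and shares exact Clopper-Pearson intervals, at the 95% level. Thinned shares are expectations of drawing 10000 UMIs per cell without replacement. All members were named, and of each other list up to the 3 highest and 3 lowest ratios among genes with 100 UMIs or more, besides cell type markers. Positions were taken from GENCODE release 44, which may differ from the authors' annotation. Computations were tested on simulated data. Alternatives covered scaling, depth, cells, count limit, fold, and detection threshold.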

Additional observations from a re-analysis of the deposited data

How the results depend on the processing

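No paired analysis was possible because each condition had 1 library. The 4 members at least 2-fold higher and the 1 at least 2-fold lower were counted alike under another scaling (which lowers every log2 ratio by 0.18), CPM averaged over cells, thinning to 10000 or 1000 UMIs, and each exclusion of cells, including, as an alternative chosen after seeing the data, the cell with the most UMIs of a gene. A minimum of 1 UMI gave 5 higher, a minimum of 1000 UMIs or a 4-fold limit gave 3, and a 1.5-fold limit gave 3 lower. Over 9 alternatives, each of the 8 members kept its sign, with log2 ratios from 2.33 to 2.54 for *S100A10*, 2.84 to 3.22 for *S100A3*, 1.32 to 1.72 for *S100A2*, 1.68 to 2.53 for *S100P*, and -2.47 to -2.13 for *S100A14*. The ranges were -0.70 to -0.42 for *S100A6*, -0.99 to -0.61 for *S100A4*, and -0.94 to -0.65 for *S100A16*. *S100A4* and *S100A16* thus came close to the 2-fold limit. Of these 72 values, 40 were within the counting interval of the reported value. Pairs co-detected above expectation numbered 1 of 20 in mock-treated and 2 of 28 in DAC-treated cells. Requiring 3 UMIs gave 0 of 15 and 7 of 26, no account of depth gave 14 of 20 and 15 of 28, and a ratio of 1.5 gave 0 and 0. Thinning to 10000 UMIs gave 7 of 15 pairs in DAC-treated cells. The cause of these shifts was not tested. Depth limits *S100A8*, *S100A9*, and *S100P*, and no test between conditions can be made with 1 library each.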
